A study of Saccharomyces cerevisiae with 4 samples.

Results

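The genes described here encode the machinery that carries proteins into the mitochondria of *Saccharomyces cerevisiae* and sorts them there. They were chosen by name, as 41 of the 6673 genes listed in the files, and were grouped by the location of their products into 13 genes of the outer membrane, 8 of the intermembrane space, 12 of the inner membrane and 8 of the matrix or the matrix side of the inner membrane. All 41 were measured in every library, with between 71 and 4501 reads, and all 41 passed the filter on low values. RNA was sequenced from a strain without *PUF3* (*PUF3Δ*, labelled PUF3del) and from wild type (WT), with 2 libraries of each strain. Both strains grew in YPEG, a rich medium in which ethanol and glycerol are the carbon sources, so that the cells had to respire, after an overnight culture in YPD. The labels name BY4742 as the background of both strains, while the genotype in their protocol lists mating type a and a deletion of *MET15*, with deletions in *HIS3*, *LEU2* and *URA3* that both strains then share. The way *PUF3* was deleted is not described in the labels.

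Most mitochondrial proteins are made in the cytosol and enter through the TOM complex of the outer membrane. From there, beta-barrel proteins pass to the SAM complex, small cysteine-rich proteins are folded by the Mia40 disulfide relay, carrier proteins reach the inner membrane through the small TIM chaperones and the TIM22 complex, and proteins with a presequence cross the TIM23 complex, driven by the PAM motor with the mitochondrial Hsp70. Puf3p is an RNA-binding protein known to bind mRNAs for mitochondrial proteins at an element downstream of the stop codon and to promote their decay. Its core element, TGTANATA in DNA letters, was looked for on the coding strand within 200 nt after the stop codon in the reference genome R64.

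The element was found in 24 of the 41 genes (58.5%), against 14.1% of the 5966 nuclear protein-coding genes matched to R64. By location, it was found in 5 of the 13 outer membrane genes, all 8 intermembrane space genes, 7 of the 12 inner membrane genes and 4 of the 8 matrix genes. In 13 genes at least 1 copy had a C 2 bases before it, as the longer form of the element has, against 4.24% of all genes. The sites of the intermembrane space genes are shown because no gene of that group lacked the element, each with 8 bases before and after it where the window allows. Capitals mark the element, whose position on R64 stands in brackets with the strand, and TIM12 and TIM13 have a further copy that is not shown.
TIM8 (chrX:677287-677294, plus): aatatatcTGTAAATAagcaaatg
TIM9 (chrV:117532-117539, plus): ttttagcaTGTAAATAtaaagaga
TIM10 (chrVIII:115509-115516, minus): tcatatccTGTATATAcaagtaac
TIM12 (chrII:427118-427125, minus): gtgctgttTGTATATAatagtaac
TIM13 (chrVII:858649-858656, plus): ctcgtactTGTATATAagattcaa
MIA40 (chrXI:77088-77095, plus): atgatacaTGTAAATAcagtaata
ERV1 (chrVII:544269-544276, plus): gattctcgTGTATATAacactcca
HOT13 (chrXI:280964-280971, plus): tatgtatcTGTATATAtatgttca

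A further 6 sites are shown because, with MBA1, which is not shown, they belong to the genes of the other locations that have the element and were higher in *PUF3Δ*. They lie 147 nt after the stop codon in TOM40, 40 nt in TOM6, 21 nt in OXA1, 35 nt in PAM17, 92 nt in MGE1 and 53 nt in TIM44. TOM6 has a further copy at 123 nt that is not shown. In the same locations TIM18, TIM22 and TIM23 have the element and were lower in *PUF3Δ*, and their sites are not shown.
TOM40 (chrXIII:669802-669809, plus): aataattaTGTATATAcgtgggca
TOM6 (chrXV:414077-414084, plus): cacttaccTGTATATAtattggtt
OXA1 (chrV:476249-476256, plus): tatctctcTGTAAATAtaaaaata
PAM17 (chrXI:565257-565264, minus): tcagactcTGTATATAtacatata
MGE1 (chrXV:775351-775358, plus): cgtttactTGTATATAtttgtaaa
TIM44 (chrIX:312513-312520, plus): attccgctTGTAAATAactccgtt

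The libraries held 6703910 and 8119223 reads on genes in *PUF3Δ*, and 7370059 and 8228693 in WT. *PUF3* itself had 2 and 6 reads in *PUF3Δ*, against 569 and 761 in WT. The mating type and strain markers went against the genotype listed in the labels and with the name BY4742, in both strains. The alpha-cell gene MF(ALPHA)1 had an RPKM (reads scaled to gene length and library depth) of 1662 and 1834 in *PUF3Δ* and of 5030 and 4012 in WT, while the a-cell gene STE2 had 4.60 and 4.75 in *PUF3Δ* and 15.4 and 13.5 in WT. The alpha-cell gene STE3 had 116 and 118 in *PUF3Δ* and 279 and 225 in WT, and the a-cell genes MFA1 and MFA2 had 1 to 10 reads in a library. LYS2, which BY4742 lacks, had 1 to 4 reads in a library. MET17, another name of *MET15*, had an RPKM of 125 and 110 in *PUF3Δ* and of 512 and 534 in WT. It was thus present in both strains but lower in *PUF3Δ* (log2 fold change -2.14), and the cause was not tested. The strains were compared with limma on log2(RPKM + 1). Genes whose RPKM averaged 1 or more over the libraries were tested, 5860 in all, and a gene was taken as changed at a Benjamini-Hochberg adjusted p under 0.05. SE stands for the standard error of a log2 fold change from this fit. With 2 libraries of a strain, and no label that says whether they came from separate cultures, the p-values measure the spread between these libraries alone.

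Across all genes tested the log2 fold change had a median of -0.39, so most genes, but not all, lay lower in *PUF3Δ*. RPKM is scaled to library depth, so this is a shift relative to the other genes and not a fall of all RNA. Median-of-ratios scaling, which divides each library by the median of its ratios to the mean library, moved this median to -0.01. The direction of small changes therefore depends on the scaling. Each change is called firm below where it passed the threshold in the same direction on the deposited values and after this scaling. Since the scaling moved fold changes upward, all 1108 genes higher as deposited stayed higher, while the lower genes went from 3175 to 1945. The label firm is thus a check on falls alone, and adds nothing for a rise. In a bulk culture, a change in every cell and a change in a fraction of the cells cannot be told apart.

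Of the 41 genes, 14 were higher and 12 lower in *PUF3Δ*, and 15 did not pass the test. Of all genes tested, 73.1% passed the test, with 18.9% higher and 54.2% lower. All 14 higher genes were firm, as was every higher gene among all genes tested (18.9%). Of the lower ones 5 were firm, against 33.2% of all genes that were firmly lower. After median-of-ratios scaling alone, 24 of the 41 genes were higher and 5 lower, against 33.9% and 33.2% of all genes. The 10 genes gained there were TOM20, TOM5, TOM7, SAM35, MDM10, HOT13, TIM13, TIM54, MAS1 and OCT1, with log2 fold changes of 0.33 to 0.66 on that scale. The median log2 fold change of the 41 genes was 0.02, and 32 of them lay above the median of all genes. Their fold changes ran from -1.19 in SOM1 to 1.43 in TOM40.

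**Figure D1:**
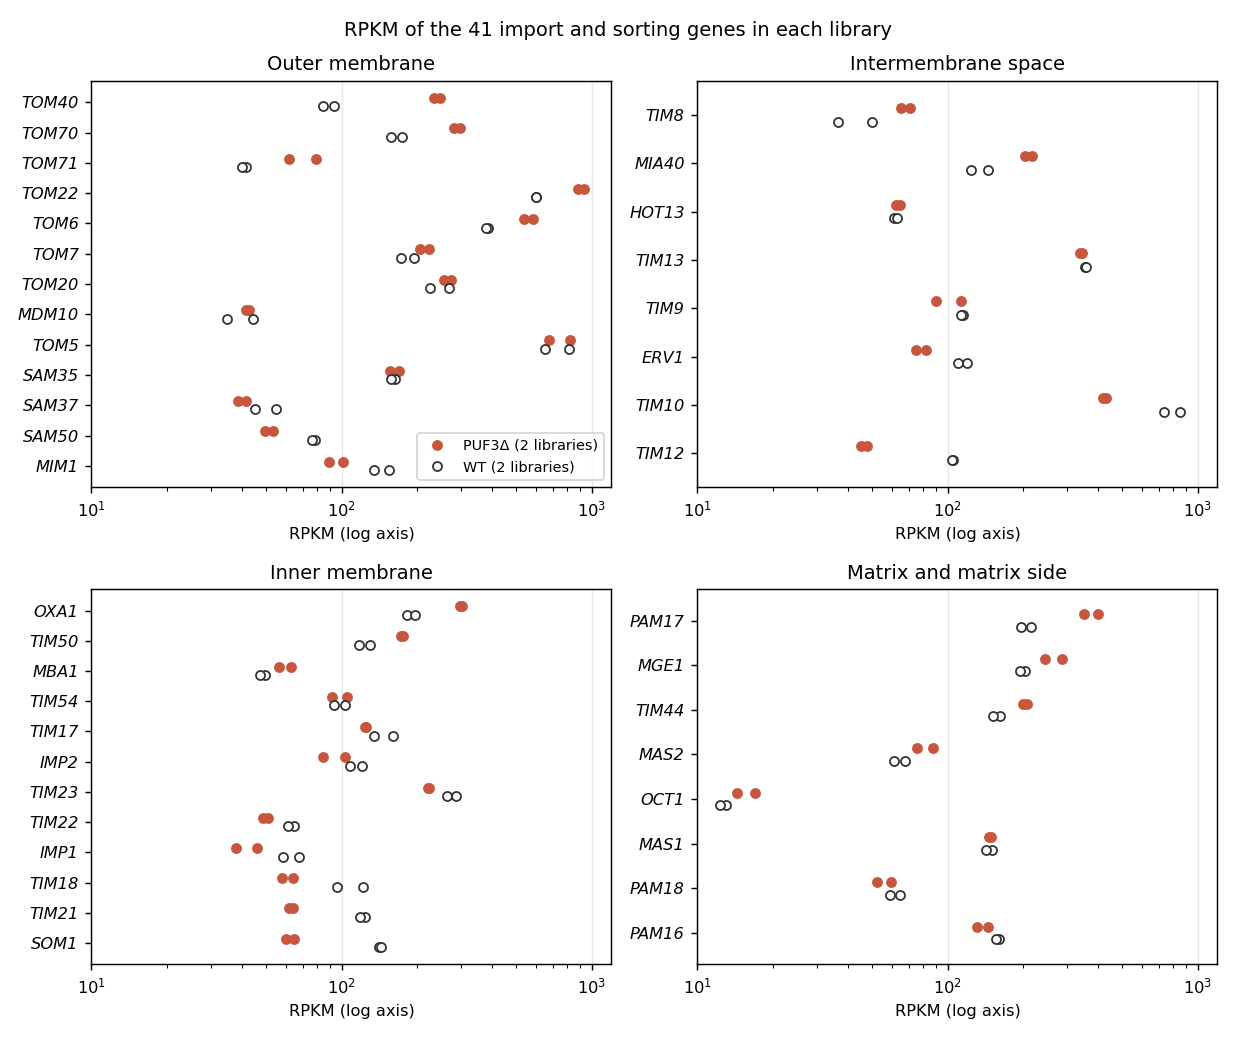
RPKM of each of the 41 genes in each library, on a log axis, in a panel for each location, with filled points for the 2 *PUF3Δ* libraries and open points for the 2 WT libraries. Genes run from the highest fold change at the top of a panel to the lowest, and the strains do not overlap in 32 of the 41 genes.

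The strains did not overlap in 32 of the genes, 16 of them higher and 16 lower in *PUF3Δ*. Among all genes tested, 24.9% were higher without overlap and 62.6% lower without overlap. The levels of the 41 genes spanned a wide range in both strains, from OCT1, with a mean RPKM of 14.2 over the 4 libraries, to TOM22, with 754.

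In the outer membrane, the genes of the TOM complex were higher in *PUF3Δ* or did not pass the test. None of the 8 was lower, against 54.2% of all genes tested. TOM40 (YMR203W, chromosome XIII of R64 from 668492 to 669655, in a single coding exon), the pore of the complex, had an RPKM of 234 and 247 in *PUF3Δ*, against 92.9 and 84.4 in WT. Both *PUF3Δ* libraries lay at 2.71 times the WT level on average, the highest ratio of the 41 genes. Its log2 fold change was 1.43 (SE 0.09, limma adjusted p = 1.9e-05), and it stayed at 1.36 or above without any 1 of the libraries.

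TOM70 and TOM71 encode paralogous receptors, of which TOM70 takes up carrier precursors from cytosolic chaperones. TOM70 had 280.5 and 299 RPKM in *PUF3Δ* and 157 and 174 in WT, a log2 fold change of 0.81 (SE 0.09, limma adjusted p = 0.00015). TOM71 had 61.5 and 79.4 RPKM in *PUF3Δ* and 41.4 and 40.0 in WT, a log2 fold change of 0.77 (SE 0.13, limma adjusted p = 0.0014). Both receptors rose without overlap, and the ratio of TOM70 to TOM71, at 4.56 and 3.77 in *PUF3Δ* against 3.79 and 4.35 in WT, overlapped between the strains. The files do not say how reads shared by the paralogs were counted.

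TOM22, the receptor that also holds the complex together, had 883 and 931 RPKM in *PUF3Δ*, against 601 and 599 in WT (log2 fold change 0.59, SE 0.07, limma adjusted p = 0.00031). TOM6, a small subunit, had 534 and 582 RPKM in *PUF3Δ*, against 385 and 378 in WT (log2 fold change 0.55, SE 0.08, limma adjusted p = 0.00061). These 5 TOM genes were all firm, as every rise was. The small subunit TOM7 had 207 and 223 RPKM in *PUF3Δ* and 194 and 173 in WT, and missed the threshold (log2 fold change 0.23, limma adjusted p = 0.054), which it passed after median-of-ratios scaling (0.61, adjusted p = 0.00098). TOM20, the receptor for presequences, and TOM5, a small subunit, overlapped between the strains. TOM20 had 258 and 273 RPKM in *PUF3Δ* and 269.7 and 225 in WT, and TOM5 had 673 and 816 in *PUF3Δ* and 809.7 and 649 in WT.

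None of the 5 genes for sorting and assembly in the outer membrane was higher as deposited and 3 were lower, against 18.9% and 54.2% of all genes. Median-of-ratios scaling gave 2 higher genes and no lower one, against 33.9% and 33.2% of all genes. SAM50, the beta-barrel insertase, had 49.3 and 53.3 RPKM in *PUF3Δ*, against 78.4 and 76.3 in WT (log2 fold change -0.58, SE 0.09, limma adjusted p = 0.00084). MIM1, which inserts helical outer membrane proteins, had 88.7 and 101 RPKM in *PUF3Δ*, against 155 and 134 in WT (log2 fold change -0.60, SE 0.11, limma adjusted p = 0.0017). Neither change was firm, since median-of-ratios scaling gave -0.20 (adjusted p = 0.073) for SAM50 and -0.22 (adjusted p = 0.10) for MIM1. SAM37, a partner of SAM50, was lower as deposited (log2 fold change -0.31, limma adjusted p = 0.047), turned to 0.073 after median-of-ratios scaling, and lost its call without WT replicate 1, without *PUF3Δ* replicate 1 and without *PUF3Δ* replicate 2, with up to 0.22 as its adjusted p. SAM35, the other partner, and MDM10, which is shared with the ER-mitochondria tether, overlapped between the strains and were the 2 genes higher after median-of-ratios scaling, with log2 fold changes of 0.41 (limma adjusted p = 0.0048) and 0.47 (limma adjusted p = 0.016). None of these 5 genes had TGTANATA in the window.

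**Figure D2:**
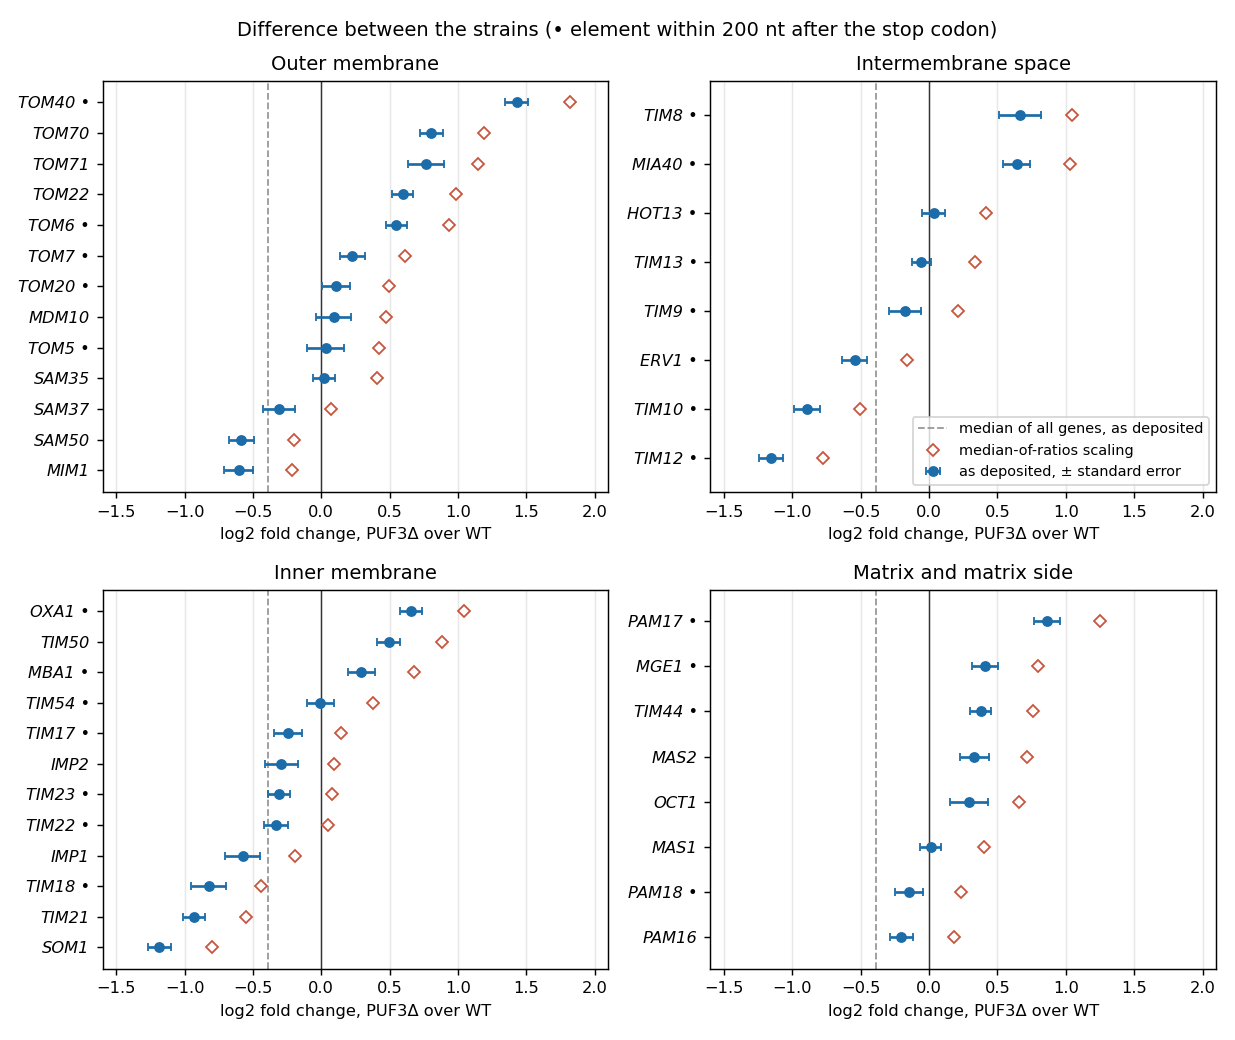
Log2 fold change of *PUF3Δ* over WT for each gene in a panel for each location, with filled circles and standard errors for the deposited values, open diamonds after median-of-ratios scaling, and a dashed line at the median of all genes (-0.39). A dot after a name marks TGTANATA within 200 nt after the stop codon. The diamonds lie to the right of the circles for all genes, and 10 genes change sign between them.

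In the intermembrane space, where all 8 genes carry the element, 2 were higher and 3 lower in *PUF3Δ*, against 18.9% and 54.2% of all genes tested. The small TIM chaperones guide hydrophobic precursors between the membranes, and their genes are among the shortest of the 41. TIM10 (YHR005C-A, chromosome VIII from 115620 to 115901), which forms a hexamer with TIM9, had 419 and 430.4 RPKM in *PUF3Δ*, against 851 and 731 in WT. TIM12 (YBR091C, chromosome II from 427155 to 427484), which docks the chaperones on the TIM22 complex, had 47.8 and 45.0 RPKM in *PUF3Δ*, against 105 and 104 in WT. Both fell firmly, with log2 fold changes of -0.89 for TIM10 (SE 0.09, limma adjusted p = 0.00013) and -1.16 for TIM12 (SE 0.08, limma adjusted p = 3.5e-05). A loess correction for gene length and GC content left the call of TIM12 (-0.57, adjusted p = 0.00049) and ended that of TIM10 (-0.13, adjusted p = 0.19).

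TIM8, which works as a complex with TIM13 on the import of TIM23, rose, with 65.3 and 71.1 RPKM in *PUF3Δ*, against 36.4 and 49.99 in WT (log2 fold change 0.66, SE 0.15, limma adjusted p = 0.0058). TIM8 had the fewest reads of the 41 genes in WT and over the 4 libraries together, with 116 and 153 in *PUF3Δ* and 71 and 109 in WT. TIM9 had 113 and 90.2 RPKM in *PUF3Δ* and 116 and 113 in WT, with overlap. TIM13 had 339 and 346 RPKM in *PUF3Δ*, against 353 and 358 in WT, and did not pass the test as deposited (log2 fold change -0.06, limma adjusted p = 0.50), while median-of-ratios scaling gave 0.33 (adjusted p = 0.0051). TIM9 overlaps another listed gene on the opposite strand over 170 of its bases and TIM13 over 54, and without a stated strand of counting these reads cannot be told apart.

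MIA40, the oxidoreductase that folds the small TIM proteins, and ERV1, the sulfhydryl oxidase that recharges it, moved apart. MIA40 (YKL195W, chromosome XI from 75821 to 77032) had 204 and 217 RPKM in *PUF3Δ*, against 124 and 146 in WT (log2 fold change 0.64, SE 0.10, limma adjusted p = 0.00090). ERV1 had 82.1 and 74.8 RPKM in *PUF3Δ*, against 119.5 and 110.0 in WT (log2 fold change -0.54, SE 0.09, limma adjusted p = 0.0014). The rise of MIA40 was firm, as every rise was, and the fall of ERV1 was not (-0.16 after median-of-ratios scaling, adjusted p = 0.18). The ratio of MIA40 to ERV1 was 2.48 and 2.91 in *PUF3Δ*, against 1.04 and 1.32 in WT. HOT13, which keeps Mia40 free of zinc, had 64.8 and 62.3 RPKM in *PUF3Δ* and 61.3 and 62.8 in WT, with overlap.

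In the inner membrane, 3 of the 12 genes were higher and 6 lower in *PUF3Δ*, and 3 of each direction were firm. Of all genes tested, 18.9% were higher, 54.2% lower and 33.2% firmly lower, so the shares in the inner membrane lay near or, for firm falls, below those of all genes. OXA1 (YER154W, chromosome V from 475020 to 476228), which inserts proteins from the matrix side, had 304 and 297 RPKM in *PUF3Δ*, against 183 and 197 in WT (log2 fold change 0.66, SE 0.08, limma adjusted p = 0.00024). MBA1, a ribosome receptor that works beside it, had 56.2 and 62.6 RPKM in *PUF3Δ*, against 49.4 and 47.1 in WT (log2 fold change 0.29, SE 0.10, limma adjusted p = 0.028). The call of MBA1 was lost without WT replicate 2 and without either *PUF3Δ* replicate, with up to 0.21 as its adjusted p.

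The subunits of the TIM23 complex did not move together. TIM50, the receptor that meets presequence proteins as they leave TOM, had 173 and 175 RPKM in *PUF3Δ*, against 129 and 117 in WT (log2 fold change 0.49, SE 0.08, limma adjusted p = 0.0014). TIM21, which links the complex with TOM and the respiratory chain, had 64.1 and 61.7 RPKM in *PUF3Δ*, against 124 and 118 in WT (log2 fold change -0.93, SE 0.08, limma adjusted p = 6.7e-05). Both changes were firm, and the correction for length and GC content left the fall of TIM21 past the threshold at -0.27 (adjusted p = 0.019). TIM23, the channel, had 223 and 221 RPKM in *PUF3Δ* and 287 and 265 in WT, a fall (log2 fold change -0.31, limma adjusted p = 0.0094) that turned to 0.077 after median-of-ratios scaling and was lost without either *PUF3Δ* replicate, with up to 0.072 as its adjusted p. TIM17, its channel partner, had 125 and 124 RPKM in *PUF3Δ* and 161 and 135 in WT and did not pass the test.

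Of the TIM22 complex, TIM18 had 64.04 and 57.8 RPKM in *PUF3Δ*, against 122 and 96.2 in WT, a firm fall (log2 fold change -0.82, SE 0.13, limma adjusted p = 0.00093) that the correction for length and GC content ended (-0.03, adjusted p = 0.85). TIM22, the pore, had 50.6 and 48.7 RPKM in *PUF3Δ*, against 64.3 and 61.1 in WT (log2 fold change -0.33, limma adjusted p = 0.012), and its direction turned after median-of-ratios scaling (0.052). Its call was also lost without either *PUF3Δ* replicate, with up to 0.093 as its adjusted p. TIM54, the third subunit, had 91.6 and 105 RPKM in *PUF3Δ* and 104 and 93.6 in WT, with overlap.

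SOM1, a subunit of the inner membrane peptidase that removes sorting signals, had 60.1 and 64.3 RPKM in *PUF3Δ*, against 141 and 144 in WT. Its log2 fold change of -1.19 (SE 0.08, limma adjusted p = 3.0e-05) was firm and the lowest of the 41 genes, and remained past the threshold after the correction for length and GC content (-0.57, adjusted p = 0.00066). IMP1, a catalytic subunit, had 46.0 and 38.0 RPKM in *PUF3Δ*, against 67.6 and 58.2 in WT (log2 fold change -0.57, limma adjusted p = 0.0049), which was not firm (-0.19 after median-of-ratios scaling, adjusted p = 0.23), and IMP1 shares 23 bases with another listed gene on the opposite strand. IMP2, the other catalytic subunit, had 83.9 and 104 RPKM in *PUF3Δ* and 121 and 108 in WT and did not pass the test. None of these 3 genes had TGTANATA in the window.

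In the matrix group, 4 of the 8 genes were higher in *PUF3Δ* and none was lower, against 18.9% and 54.2% of all genes tested. All 4 were firm, as every rise was. PAM17 (YKR065C, chromosome XI from 565299 to 565892), which organizes the import motor, had 399 and 351 RPKM in *PUF3Δ*, against 196 and 216 in WT (log2 fold change 0.86, SE 0.09, limma adjusted p = 0.00017). MGE1, the nucleotide exchange factor of the mitochondrial Hsp70, had 246 and 288 RPKM in *PUF3Δ*, against 205 and 195 in WT (log2 fold change 0.41, SE 0.10, limma adjusted p = 0.0067), a call that was lost without *PUF3Δ* replicate 2 (0.30, adjusted p = 0.071). TIM44, which docks the Hsp70 at the channel, had 199.8 and 208 RPKM in *PUF3Δ*, against 162 and 152 in WT (log2 fold change 0.38, SE 0.08, limma adjusted p = 0.0040). Neither gene of the J-domain pair of the motor passed the test as deposited. PAM18, the J-protein, had 52.3 and 59.2 RPKM in *PUF3Δ* and 64.6 and 58.8 in WT, with overlap, and PAM16, its J-like partner, had 145 and 131 in *PUF3Δ* and 161 and 157 in WT (log2 fold change -0.20, limma adjusted p = 0.064). After the correction for length and GC content both were higher, PAM16 at 0.43 (adjusted p = 0.0020) and PAM18 at 0.57 (adjusted p = 0.00087).

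Of the peptidases that cut presequences, MAS2 had 75.3 and 87.4 RPKM in *PUF3Δ*, against 67.7 and 61.3 in WT (log2 fold change 0.33, SE 0.11, limma adjusted p = 0.026). The call of MAS2 was lost without WT replicate 2 and without *PUF3Δ* replicate 2, with up to 0.20 as its adjusted p. MAS1, the other subunit of the same enzyme, had 146 and 149 RPKM in *PUF3Δ* and 150.4 and 142 in WT, with overlap, and overlaps another listed gene on the opposite strand over 114 of its bases. OCT1, which trims some precursors a further time, had 14.4 and 17.0 RPKM in *PUF3Δ* and 12.96 and 12.3 in WT, and did not pass the test (log2 fold change 0.29, limma adjusted p = 0.096). After median-of-ratios scaling OCT1 was at 0.66 (adjusted p = 0.0049) and MAS1 at 0.40 (adjusted p = 0.0035), both past the threshold, and OCT1 also passed with voom (adjusted p = 0.048).

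**Figure D3:**
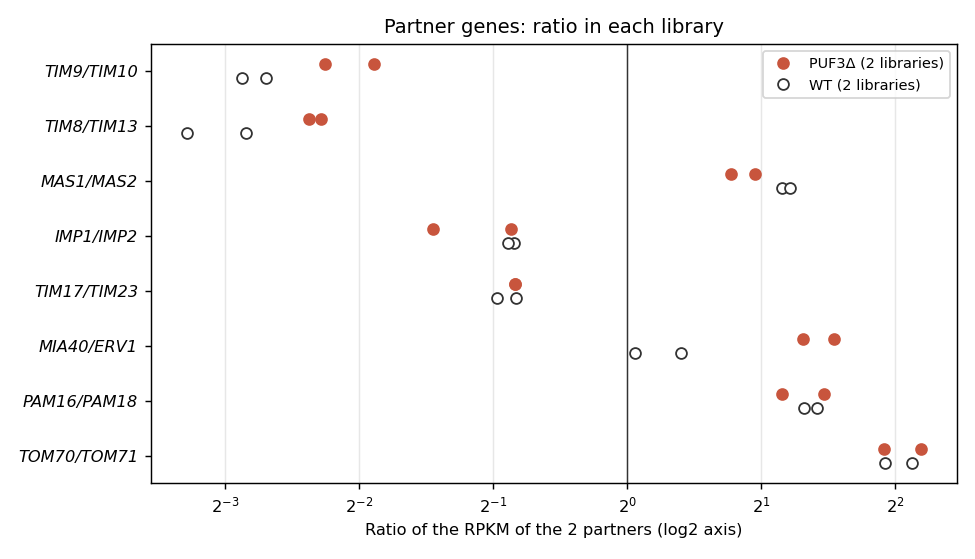
Ratio of the RPKM of the 2 partners in each of 8 pairs, on a log2 axis, with filled points for the *PUF3Δ* libraries and open points for the WT libraries. The strains do not overlap for TIM9/TIM10, TIM8/TIM13, MAS1/MAS2 and MIA40/ERV1, and overlap for the other 4 pairs.

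The ratio of partners that work as a complex or a relay was computed within each library, for 8 pairs. The ratio of TIM9 to TIM10 was 0.27 and 0.21 in *PUF3Δ*, against 0.14 and 0.15 in WT, and that of TIM8 to TIM13 was 0.19 and 0.21 in *PUF3Δ*, against 0.10 and 0.14 in WT. The ratio of MAS1 to MAS2 was 1.94 and 1.71 in *PUF3Δ*, against 2.22 and 2.32 in WT. The log2 difference of MAS1 to MAS2 between the strains, -0.32, was -0.10 after the correction for length and GC content, while those of TIM9 to TIM10 (0.72), TIM8 to TIM13 (0.72) and MIA40 to ERV1 (1.19) were then 0.61, 0.93 and 1.00. With MIA40 and ERV1, these were the 4 pairs without overlap. How often the ratios of other gene pairs do not overlap was not computed. Among single genes tested, 24.9% were higher and 62.6% lower without overlap, so a lack of overlap is common in these libraries. TIM17 to TIM23 (0.56 and 0.56 in *PUF3Δ*, 0.56 and 0.51 in WT), PAM16 to PAM18 (2.77 and 2.22 in *PUF3Δ*, 2.49 and 2.66 in WT), IMP1 to IMP2 and TOM70 to TOM71 overlapped. An exact permutation test of 2 against 2 libraries cannot give a two-sided p below 0.333, so no p is given for the ratios.

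Genes with the element in the window were found among those that rose and those that fell. Of the 24 genes with TGTANATA, 9 were higher (all firm) and 6 lower (3 firm), and their median log2 fold change was 0.03. Of the 17 genes without it, 5 were higher (all firm) and 6 lower (2 firm), with a median of 0.01. Over all matched genes tested, 186 of the 822 genes with the element were higher and 386 lower, with a median of -0.22, and 896 of the 4787 without it were higher and 2655 lower, with a median of -0.40. The split of the 41 genes changes with the window, since TOM70, TOM22 and MAS2, which rose, have the element between 200 and 300 nt after the stop codon. Within 300 nt, 12 of 27 genes with the element were higher and 6 lower (median 0.10), and 2 of 14 without it, TOM71 and TIM50, were higher and 6 lower (median -0.25). Over all matched genes, 220 of 939 with the element within 300 nt were higher and 442 lower (median -0.22). Of the 4670 without it, 862 were higher and 2599 lower (median -0.41). TIM10, TIM12 and TIM18 fell firmly with the element within 200 nt. The 13 genes whose element has a C 2 bases before it had 4 higher and 3 lower genes (median -0.06). The 11 genes with the element but without this C had 5 higher and 3 lower (median 0.10). The shares over all genes with and without the C were not computed.

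By location, the median log2 fold change lay above the median of all genes by 0.70 in the matrix group, 0.49 in the outer membrane, 0.27 in the intermembrane space and 0.084 in the inner membrane. After the correction for length and GC content these were 0.52, 0.73, 0.52 and 0.22, so that the outer membrane and not the matrix group was highest. The value of the inner membrane was 0.16 without WT replicate 1 and 0.014 without WT replicate 2, and that of the intermembrane space was 0.18 without *PUF3Δ* replicate 1. In a finer grouping, the 8 TOM genes lay 0.96 above it, the 5 motor genes 0.76, the 5 small TIM genes 0.21 and the 5 outer membrane sorting genes 0.08. These medians are descriptions, since genes are not replicates, and their differences were not tested.

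**Figure D4:**
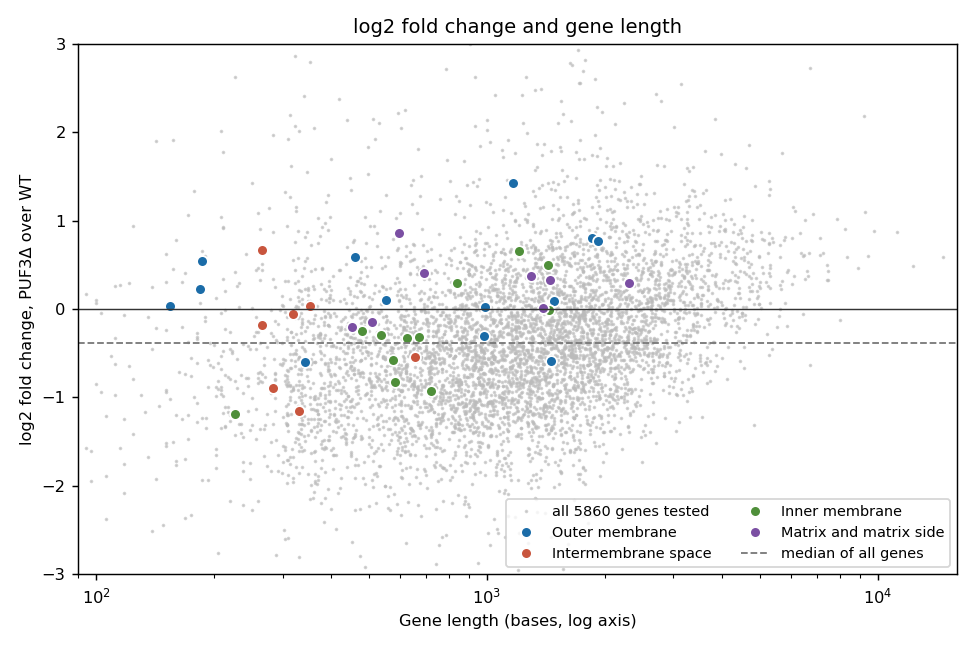
Log2 fold change of *PUF3Δ* over WT against gene length on a log axis, with the 5860 genes tested in grey and the 41 genes coloured by location. The vertical axis stops at 3 in either direction and leaves out 27 grey points, and the shortest genes lie lowest in the grey cloud.

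Gene length moved with the difference between the strains in these libraries. Over all genes tested, the log2 fold change had a Spearman's rho of 0.35 with length, and over the 41 genes 0.32, in both cases across genes of the same libraries. The 644 tested genes under 400 bases had a median log2 fold change of -0.73, with 73 higher and 384 lower. The 11 import genes under 400 bases, which are the 5 small TIM genes, TOM5, TOM6, TOM7, MIM1, HOT13 and SOM1, had a median of -0.06, with 2 higher and 4 lower. The intermembrane space genes had a median length of 325 bases, against 985 in the outer membrane, 648 in the inner membrane and 993 in the matrix group. After the loess correction for length and GC content, 27 of the 41 genes were higher and 3 lower (SOM1, TIM12 and TIM21). The part of length in the differences between locations was not tested beyond this.

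Of 15 further genes of the pathway, 6 were higher and 6 lower in *PUF3Δ*, of which 6 and 5 were firm. Of all genes tested, 18.9% were higher, 54.2% lower and 33.2% firmly lower, so the firm falls lay near the share of all genes. SSC1, the mitochondrial Hsp70 that pulls precursors through the channel, had 954 and 935 RPKM in *PUF3Δ*, against 186 and 216 in WT (log2 fold change 2.23, SE 0.09, limma adjusted p = 8.7e-06). MDJ1, its J-protein in the matrix, had 137 and 131 RPKM in *PUF3Δ*, against 83.1 and 93.5 in WT (log2 fold change 0.60, SE 0.09, limma adjusted p = 0.00085). ZIM17, which keeps this Hsp70 soluble, had 47.2 and 37.2 RPKM in *PUF3Δ*, against 92.3 and 112 in WT (log2 fold change -1.26, SE 0.14, limma adjusted p = 0.00019), and YLH47, related to the ribosome receptor Mdm38, had 57.4 and 51.3 in *PUF3Δ*, against 122 and 116 in WT (log2 fold change -1.12, SE 0.09, limma adjusted p = 5.3e-05). YLH47 overlaps another listed gene on the opposite strand over 249 of its bases. Around the Hsp70, SSC1, MGE1, TIM44 and MDJ1 rose while ZIM17 fell, and SSC1 has no TGTANATA in the window while the other 4 have it. Among the other motor genes, PAM17 rose, and PAM16 and PAM18 did not pass the test as deposited. PAM17 and PAM18 have the element in the window and PAM16 lacks it. Without *PUF3Δ* replicate 2, 3 of the 15 genes were higher in place of 6.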

How the data were processed

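RNA was sequenced from 2 libraries of *PUF3Δ* and 2 of WT yeast. The authors purified mRNA with oligo-dT beads, mapped the reads by SOAP2 with no more than 2 mismatches and deposited an RPKM for every gene in each library. The labels list build R64, but the deposited start, with 1 added, and end equalled those of R64 in 16.5% of the 5966 matched genes, so positions and sequences were taken from RefSeq's R64 alone, joined by gene identifier. The version of SOAP2, how multiply mapped reads were treated and whether counting used strand are not given in the sources used here.

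With the gene length of the files, the deposited RPKM gave whole reads for 100% of the values within 0.1 of a read. The reads of libraries of the same strain differed beyond counting noise (chi-square per degree of freedom 4.60 in *PUF3Δ* and 11.7 in WT). The source of this excess was not tested, so separate cultures or preparations cannot be inferred from it. The test was limma 3.58.1 (R 4.3.3), two-sided, with moderated variances that follow a trend in level and no replicate block, on log2(RPKM + 1) of the 5860 genes averaging an RPKM of 1 or more, with Benjamini-Hochberg adjustment over these genes. The fold change is on the log2(RPKM + 1) scale, which understates the change of low genes. The fit was also run on simulated reads with few genes changed and no shift of all genes or trend with length. It therefore was not checked under the shift and the length trend seen in these libraries. The members, locations, pairs and lists were chosen with earlier results of these data known. All 41 genes could be named, with values in every library for the extremes of each location, the pairs and the firm changes, and of 15 further pathway genes the 2 highest and 2 lowest. The alternatives were other pseudocounts, filters and scalings, limma's voom on the recovered reads, a correction for length and GC content, a replicate block, leaving out each library, and other windows and a longer form of the element.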

Additional observations from a re-analysis of the deposited data

How the results depend on the processing

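The scaling mattered most. Median-of-ratios scaling gave 24 higher and 5 lower genes, quantile normalization 21 higher and 6 lower genes, and the loess correction for length and GC content 27 higher and 3 lower genes, in place of 14 and 12. Shares of all genes were computed for the deposited values and median-of-ratios scaling alone. The counts of every other setting, here and below, therefore cannot be set against such a share. The log2 fold change turned positive under median-of-ratios scaling, quantile normalization and the loess correction in SAM37 (0.073, 0.13 and 0.34), TIM9 (0.21, 0.13 and 0.48), TIM13 (0.33, 0.039 and 0.54), TIM22 (0.052, 0.058 and 0.18), TIM54 (0.38, 0.32 and 0.24), IMP2 (0.092, 0.030 and 0.25), PAM16 (0.18, 0.011 and 0.43), PAM18 (0.24, 0.24 and 0.57), ICP55 (0.078, 0.16 and 0.077) and MDM38 (0.26, 0.12 and 0.012). It turned under median-of-ratios scaling and the loess correction in TIM23 (0.077 and 0.041) and TIM17 (0.14 and 0.22), and under the loess correction alone in ERV1 (0.0046) and IMP1 (0.012). Relative to all genes, the loess correction moved the median of the outer membrane genes to 0.73, of the intermembrane space to 0.52, of the inner membrane to 0.22 and of the matrix group to 0.52. A pseudocount of 5 gave 0.43 for the outer membrane and 0.60 for the matrix group, and quantile normalization gave 0.43 and 0.59. The cause of these moves was not tested.

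Leaving out each library in turn gave 11 to 16 higher and 9 to 14 lower genes, 3 to 6 higher further pathway genes, and medians of 0.50 to 0.62 for the outer membrane, 0.18 to 0.35 for the intermembrane space, 0.014 to 0.16 for the inner membrane and 0.60 to 0.77 for the matrix group. The sign changed within -0.024 to 0.23 in TOM20, -0.13 to 0.19 in TOM5, -0.038 to 0.075 in SAM35, -0.075 to 0.26 in MDM10, -0.10 to 0.091 in TIM54, -0.027 to 0.051 in MAS1, -0.0049 to 0.073 in OM14 and -0.17 to 0.24 in DJP1. The element was found in 15 genes with a window of 100 nt, in 27 with 300 nt, and in 13 with the C before it. With the replicate number as a block, 14 genes were higher and 11 lower, since SAM37 missed the threshold. The deviations of same-numbered libraries had a correlation of -0.014. This single value cannot show whether same-numbered libraries were grown or prepared together, which the sample titles do not say. Other pseudocounts and filters and voom changed at most 2 calls each among the 41 genes. With 2 libraries of a strain, small changes were not detectable with certainty.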
